A study of Rattus norvegicus with 6 samples.

Results

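The genes described here are 10 components of bone morphogenetic protein (BMP) signalling: the ligand genes Bmp2, Bmp4, Bmp5, Bmp7 and Bmp10, the antagonist gene Grem1, and the target genes Id1, Id2, Id3 and Smad6. They were taken by symbol from a deposited table of 23096 protein-coding rat genes, in which each of the 10 had 1 row. Their RNA was measured in ventricular cardiomyocytes of Wistar rat embryos at E18.5, grown in culture on laminin with serum. For 48 h the cultures were given either the solvent dimethyl sulfoxide (DMSO, called vehicle here) or 10 µM of all-trans retinoic acid (ATRA), the ligand of the retinoic acid receptors, with 3 libraries from each treatment. The cultures are primary cells enriched for myocytes by pre-plating, so other heart cells remained, and the labels do not say that replicates came from separate isolations. Differences are therefore tested against a spread between libraries that may be technical only.

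BMPs are secreted members of the TGF-beta family that bind pairs of type I and type II serine/threonine kinase receptors. The receptors phosphorylate SMAD1, SMAD5 and SMAD9, which enter the nucleus with SMAD4 and switch on targets, among them the ID genes and the feedback inhibitor gene Smad6. ID proteins hold basic helix-loop-helix transcription factors away from DNA, and BMP ligands act in the developing heart on myocardial growth, the valves and the outflow tract. Gremlin, the product of Grem1, binds BMP ligands outside the cell and keeps them from their receptors.

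Promoter sequences are shown for Grem1, which had the widest difference between the groups, and for Id1, Id2 and Id3, related genes of which Id2 and Id3 moved in opposite directions. Each is the 250 bases before the annotated gene start from RefSeq, build GRCr8, read 5′ to 3′ on the strand of the gene. Capitals mark matches, on either strand, to GGCGCC and AGAC, letters that SMAD proteins are known to bind, and to AGGTCA and GGGTCA, letters that retinoic acid receptors are known to bind as parts of longer elements.
Grem1, chr3:120978320-120978569, minus strand: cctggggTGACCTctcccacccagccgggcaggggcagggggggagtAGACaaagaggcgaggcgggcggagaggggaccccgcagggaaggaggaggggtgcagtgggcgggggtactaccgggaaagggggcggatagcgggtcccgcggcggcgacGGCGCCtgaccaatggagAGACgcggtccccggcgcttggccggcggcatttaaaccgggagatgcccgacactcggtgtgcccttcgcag
Id1, chr3:161671314-161671563, plus strand: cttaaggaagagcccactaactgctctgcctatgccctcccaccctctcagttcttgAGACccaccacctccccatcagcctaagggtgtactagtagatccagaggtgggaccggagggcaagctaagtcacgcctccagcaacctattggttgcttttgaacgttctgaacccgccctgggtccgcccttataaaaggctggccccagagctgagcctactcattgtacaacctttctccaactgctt
Id2, chr6:47470996-47471245, minus strand: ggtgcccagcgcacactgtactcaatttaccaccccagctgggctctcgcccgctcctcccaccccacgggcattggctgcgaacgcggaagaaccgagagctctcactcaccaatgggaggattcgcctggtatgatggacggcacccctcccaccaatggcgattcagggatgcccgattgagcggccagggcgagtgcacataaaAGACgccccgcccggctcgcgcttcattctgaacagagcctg
Id3, chr5:153656041-153656290, plus strand: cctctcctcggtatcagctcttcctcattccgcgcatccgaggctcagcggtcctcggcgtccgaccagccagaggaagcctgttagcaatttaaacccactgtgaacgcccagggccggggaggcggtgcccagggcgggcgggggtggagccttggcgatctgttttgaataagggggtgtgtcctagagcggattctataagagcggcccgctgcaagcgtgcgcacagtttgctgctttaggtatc

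The Grem1 window held 1 match to GGCGCC, which lay 91 to 86 bases before the gene start. It also held 1 match to AGGTCA on the opposite strand, 243 to 238 bases before the start. The short motif AGAC was present at 2 places in Grem1 and at 1 place in Id1 and in Id2, and the Id3 window held none of the 4 motifs. Among 27457 rat promoter windows of this length, the motif GGCGCC was present in 9.24%. Windows with AGGTCA made up 13.7% of them. The share with GGGTCA was 11.8%, and the short motif AGAC was present in 83.9% of all the windows. G and C made up 72% of the Grem1 window, against a median of 52% over all windows, and these shares were not matched for that. No marked matches overlapped. A match describes these letters, and windows without one say nothing about binding elsewhere, since the BMP-responsive element known for mouse Id1 lies farther upstream. RefSeq windows were at hand for 7 of the 10 genes, and those of Bmp4, Bmp5 and Bmp10 held no match to the 3 longer motifs.

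After ATRA, RNA of Bmp7, Bmp5 and Id2 rose, and RNA of Bmp2, Bmp4, Bmp10, Grem1 and Id3 fell. Id1 and Smad6 did not pass the test. All 10 genes were tested with limma, so that 3 of 10 were higher and 5 lower at an adjusted p (Benjamini-Hochberg, over the whole table) under 0.05. Among all 13110 genes tested, 39.3% were called, 20.3% higher and 18.9% lower. Without vehicle replicate 3, 3 of the 10 were higher and 6 lower, and the share of all genes called was also larger, at 50.1%, with 26% higher and 24.1% lower. The median log2 fold change was -0.59 over the 10 genes and 0.0044 over all genes tested. In 9 of the 10 genes the normalised counts of the groups did not overlap, against 53.8% of all genes. In the authors' deposited table, where 34% of genes with an adjusted p had one under 0.05, 8 of the 10 genes were also under it, but Id1 was among them and Bmp5 was not.

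**Figure D1:**
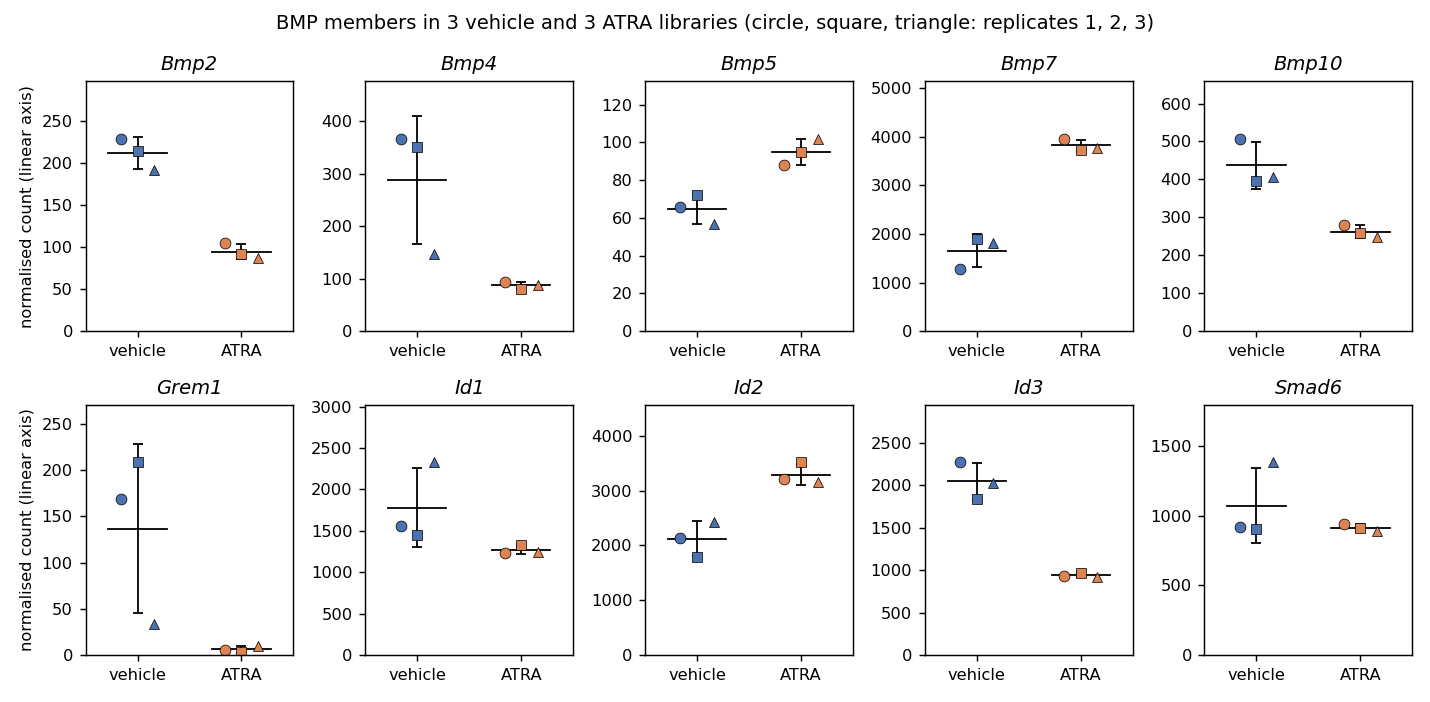
Normalised counts of the 10 genes on linear axes from 0, by group. Symbols are single libraries, the horizontal line is the group mean and the bar is the SD (n = 3). Bmp7, Bmp5 and Id2 lie higher in every ATRA library, Smad6 overlaps between the groups, and vehicle replicate 3 lies apart for Grem1, Bmp4, Id1 and Smad6.

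The libraries held 25434878 to 32052035 gene-assigned reads, at which 3 reads equal 0.0936 to 0.118 CPM (reads scaled to a common library total). Defining cardiomyocyte genes were abundant in every library, and the summed FPKM (fragments scaled by gene length and library depth) of 8 such markers was 16746 to 21000 in vehicle and 19076 to 19545 after ATRA. Nppa gave the largest part of that sum and was called lower, at 11209 FPKM on average in vehicle and 8305 after ATRA. Myl2 (log2 fold change 1.07) and Tnnt2 (0.39) were called higher, and 5 of the 8 markers were not called. The share called was 37.5%, beside 39.3% of all genes. Vehicle replicate 3 stood apart in markers of several other heart cell types: 8 of 9 tested fibroblast markers and 6 of 6 epicardial markers were lower there than in vehicle replicates 1 and 2 on average, with a median of -1.16 and -1.08 on the log2 scale. The cardiomyocyte markers had a median of 0.25 in the same library. Of the tested endothelial markers 6 of 7, and of the smooth muscle and pericyte markers 5 of 7, were lower there too, whereas 0 of 3 immune markers were, with a median of 0.45. Among all 13110 genes tested, 6376 were lower there, with a median of 0.007. The epicardial marker Krt19 was not analysed here, and every other gene of the 6 marker lists had reads in at least 1 library.

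Bmp7, which encodes a ligand made by the embryonic myocardium, was the most abundant of the 5 ligand RNAs per length. It had 1273, 1891 and 1814 normalised counts in vehicle replicates 1 to 3 and 3958, 3733 and 3770.3 in ATRA replicates 1 to 3. Every ATRA library lay above every vehicle library, and vehicle replicate 1 was the lowest. The rise was 2.3-fold, from 1659 ± 337 to 3820.5 ± 121 (SD, n = 3), with a log2 fold change of 1.22 ± 0.14 (SE) and adjusted p = 0.00043 (limma).

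Bmp5 encodes a close relative of BMP7 and was the scarcest of the 5 per length in both groups. Its normalised counts were 65.8, 72 and 56.5 in vehicle and 88.2, 95 and 102 after ATRA, with no overlap. The rise was 1.47-fold (log2 fold change 0.55 ± 0.16, SE, n = 3, limma adjusted p = 0.025). This call was lost without ATRA replicate 1, 2 or 3 (limma adjusted p = 0.056, 0.081 and 0.1) and with scaling by library size alone (limma adjusted p = 0.052), and in the authors' deposited table the adjusted p was 0.051.

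Bmp2, a ligand of the atrioventricular canal and the valves, had 228, 214 and 191 normalised counts in vehicle and 105, 92 and 86.7 after ATRA. The replicates were close together within each group and the groups were well apart. Bmp2 was 2.24-fold lower after ATRA (log2 fold change -1.15 ± 0.13, SE, n = 3, limma adjusted p = 0.00046). Bmp10, which encodes a ligand specific to cardiomyocytes and needed for trabeculation, had 507, 397 and 407 in vehicle and 281, 259 and 248 after ATRA. It was 1.66-fold lower (-0.72 ± 0.12, SE, n = 3, limma adjusted p = 0.0022), again without overlap.

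Bmp4 encodes the ligand closest to BMP2 and acts in the outflow tract. Its normalised counts were 367, 351 and 147 in vehicle and 94.1, 79.9 and 87.8 after ATRA. The groups did not overlap, but vehicle replicate 3 was far below the other vehicle libraries and nearer to the ATRA libraries than to them. Bmp4 was 3.3-fold lower after ATRA (log2 fold change -1.6 ± 0.32, SE, n = 3, limma adjusted p = 0.0063), and -2.03 without vehicle replicate 3 (limma adjusted p = 4.6e-06).

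Bmp7 took a larger share of the ligand RNA in every ATRA library than in any vehicle library. On the FPKM scale, which allows levels of different genes to be compared, the 5 ligand genes summed to 40.6 ± 3.32 in vehicle and 62.6 ± 2.21 after ATRA (SD, n = 3). Bmp7 made up 47.3%, 60.1% and 64.4% of that sum in vehicle replicates 1 to 3 and 85.6%, 86% and 86.3% in ATRA replicates 1 to 3. The share of Bmp2 went from 14.3% ± 1.9 to 4.13% ± 0.27, that of Bmp4 from 10.1% ± 4.4 to 1.99% ± 0.11, and that of Bmp10 from 16.8% ± 3.53 to 6.49% ± 0.22. The share of Bmp5 was 1.48% ± 0.15 and 1.41% ± 0.14. The ratio of Bmp7 to Bmp4 had a geometric mean of 6.05 in vehicle and 43.2 after ATRA. It was higher in 3 of 3 ATRA libraries than in any vehicle library (difference 2.84 on the log2 scale, two-sided exact permutation p = 0.1, the smallest that 3 against 3 allows). Since Bmp7 was higher and Bmp4 lower without overlap, this separation follows from the single genes and is no separate result. The pair was chosen after its values were seen.

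**Figure D2:**
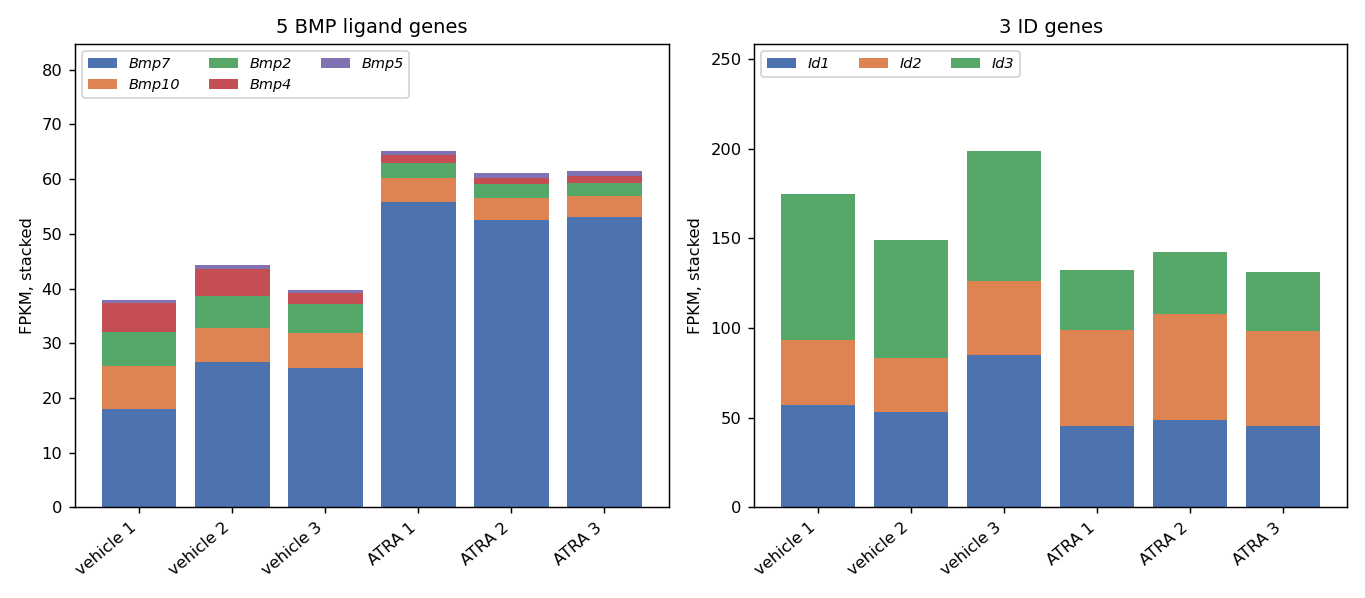
Stacked FPKM per library for the 5 ligand genes (left) and for Id1, Id2 and Id3 (right), with axes from 0. Bmp7 fills 47.3% to 64.4% of the ligand bar in vehicle and 85.6% to 86.3% after ATRA, and Id2 fills 20.5% and 40.8% of the ID bar on average.

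Grem1 had the largest change of the 10 genes. It had 168, 208 and 33.7 normalised counts in vehicle and 4.9, 3.03 and 9.76 after ATRA. Every ATRA library was below every vehicle library, and vehicle replicate 3 was again the low one of its group. In reads, the 3 vehicle libraries together held 445 and the 3 ATRA libraries 17, which at equal depth is a ratio of 26.6 with an exact 95% counting interval of 16.5 to 46.2, which covers counting error only. The log2 fold change was -4.08 ± 0.68 (SE, n = 3, limma adjusted p = 0.0027). Without vehicle replicate 3 it was -4.89 (limma adjusted p = 2.5e-05). Grem1 passed the filter on low values through the vehicle libraries alone.

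Markers of non-myocyte cells also differed between libraries, but not all in the direction of Grem1 and Bmp4. The epicardial sum was lower in every ATRA library, the smooth muscle and immune sums were higher, and the fibroblast and endothelial sums overlapped between the groups. The summed FPKM of 10 fibroblast markers, to which the collagen genes Col1a1, Col1a2 and Col3a1 gave most, was 1803, 1383 and 809 in vehicle replicates 1 to 3 and 774 to 819 in the ATRA libraries. That of 6 epicardial markers was 29.5, 24.9 and 12.7 in vehicle and 6.61 to 7.67 after ATRA. In vehicle replicate 3 the fibroblast sum lay within the ATRA range, and Grem1 was 2.45 and Bmp4 0.75 above the ATRA mean on the log2 scale. The epicardial sum of that library lay above the ATRA range. So did the single fibroblast marker Postn, a small part of the fibroblast sum. Postn had 6488, 5798 and 2668 normalised counts in vehicle and 436, 372 and 408 after ATRA. Of the tested markers, 2 of 9 fibroblast genes were higher and 2 lower, and 4 of 6 epicardial genes were lower, one of them the retinoid enzyme gene Aldh1a2. Among all genes tested, 39.3% were called, 20.3% higher and 18.9% lower. The fibroblast share called, 44.4%, was near that, and the epicardial share was 66.7%. Endothelial markers summed to 3.98 to 8.18 in vehicle and 7.41 to 8.04 after ATRA, and immune markers to 1.38 to 1.96 and 2.58 to 3.56. Smooth muscle and pericyte markers summed to 64.5 to 136 and 174 to 190, and these last 2 sums, like the epicardial one, did not overlap between the groups. Yet of the 7 tested smooth muscle and pericyte genes, 3 were called higher and 3 lower. Abcc9 alone went from 6.73 to 73.6 FPKM on average, so the rise of that sum does not describe the whole list. Of the 7 tested endothelial genes, 1 was higher and 2 were lower. The share called, 42.9%, was near the 39.3% of all genes, and the median log2 fold change was -0.49. Kdr, the higher gene, went from 1.4 to 5.1 FPKM on average, so the endothelial sum does not describe its whole list either. Of the 8 immune genes, 5 were too low to test, 1 was called higher and 2 were not called. The median log2 fold change of the 3 tested was -0.07, so the higher immune sum does not describe that list. In bulk RNA, fewer cells of a type and less RNA per cell cannot be told apart. The part of cell makeup in the falls of Grem1 and Bmp4 was not tested.

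**Figure D3:**
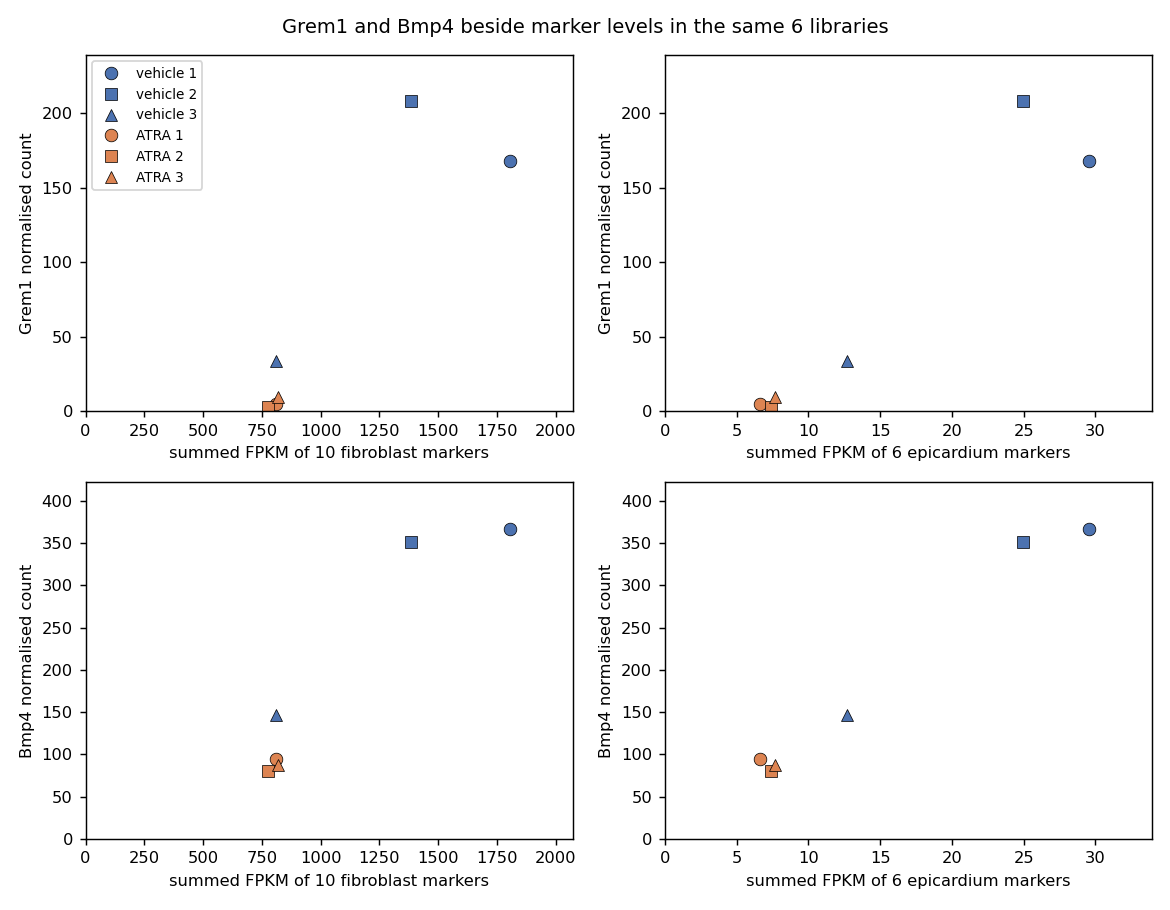
Grem1 (top) and Bmp4 (bottom) normalised counts against the summed FPKM of 10 fibroblast (left) and 6 epicardial (right) markers in the same 6 libraries, on linear axes. Vehicle replicate 3 has a fibroblast sum, mostly of collagen RNA, of 809, within the ATRA range of 774 to 819. Its epicardial sum of 12.7 lies above the ATRA range of 6.61 to 7.67, and its Grem1 and Bmp4 are higher than in the ATRA libraries. The part of cell makeup was not tested.

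Over the 6 libraries, the genes whose pattern was most like that of Grem1 were Acan, which encodes the proteoglycan aggrecan, Sv2c, a synaptic vesicle glycoprotein gene, and Nptx1, a neuronal pentraxin gene. Likeness was the Euclidean distance between log2(normalised count + 1) values centred on each gene's mean, which was 1.25, 1.316 and 1.38 for these genes. Since the genes were chosen for their likeness in these same libraries, a shared pattern follows from the choice and is no separate result. All 3 were lowest among the vehicle libraries in replicate 3, with 158 normalised counts for Acan against 374 and 393, 12 for Sv2c against 38.7 and 33.9, and 133 for Nptx1 against 316 and 209. After ATRA they had at most 21.6, 3.25 and 17.3. Sv2c, like Grem1, passed the filter on low values through the vehicle libraries alone.

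The ratio of Bmp4 to Grem1 RNA was higher in every ATRA library than in any vehicle library. Per length, Bmp4 stood at 4.53 times Grem1 in vehicle and 29.8 times after ATRA (geometric means, n = 3), a difference of 2.72 on the log2 scale. The ATRA value rests on 5, 3 and 9 Grem1 reads, and Grem1 passed the filter on low values through vehicle libraries alone. The lowest ATRA library was at 4.02 and the highest vehicle library at 2.97 on that scale, so the groups did not overlap (two-sided exact permutation p = 0.1, the smallest possible). This ratio and the other 2 tested as ratios were chosen after their values were seen, and Benjamini-Hochberg adjustment of the exact permutation values over the 3 left each at 0.1.

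Among the targets, Id3 fell and Id2 rose. Id3 had 2271, 1837 and 2034 normalised counts in vehicle and 931, 971 and 921 after ATRA. The groups were far apart relative to their spread, and the fall was 2.18-fold, with a log2 fold change of -1.12 ± 0.08 (SE, n = 3, limma adjusted p = 5.6e-05), the smallest p of the 10 genes. Id2, the member of the family that many cell types also control independently of BMP, had 2145, 1792 and 2433 in vehicle and 3211, 3515 and 3151 after ATRA. It rose 1.55-fold without overlap (0.64 ± 0.11, SE, n = 3, limma adjusted p = 0.0026).

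Id1, usually counted among the most direct BMP targets, had 1564, 1455 and 2326 normalised counts in vehicle and 1236, 1329 and 1242 after ATRA. Every ATRA library was below every vehicle library, but vehicle replicate 3 was well above the rest. The log2 fold change was -0.46 ± 0.16 (SE, n = 3), and the adjusted p of 0.051 (limma) missed the threshold. Without vehicle replicate 3 the estimate was smaller, -0.25, but passed (limma adjusted p = 0.0081), and Id1 also passed without vehicle replicate 1 or 2 (limma adjusted p = 0.038 and 0.032). It passed with edgeR (adjusted p = 0.043), DESeq2 (adjusted p = 0.0097), upper-quartile factors (limma adjusted p = 0.034), library size alone (limma adjusted p = 0.022), array weights (limma adjusted p = 0.022) and a replicate block (limma adjusted p = 0.046). It missed the threshold without ATRA replicate 1, 2 or 3 (limma adjusted p = 0.14, 0.1 and 0.14), and with either other filter or pseudocount (limma adjusted p = 0.051 to 0.053). In the authors' deposited table it had a log2 fold change of -0.49 and an adjusted p of 0.012.

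Smad6, the inhibitory SMAD gene that BMP signalling induces, was not called. It had 923, 909 and 1384 normalised counts in vehicle and 944, 914 and 888 after ATRA, so that the groups overlapped. Vehicle replicate 3 was the high library, as for Id1. The log2 fold change was -0.2 ± 0.15 (SE, n = 3, limma adjusted p = 0.33), and without vehicle replicate 3 it was -0.0019 (limma adjusted p = 0.98). In CPM, which scales reads by library totals alone, the lowest vehicle library was at 32.7 and the highest ATRA library at 31.7, so that on this scale the groups did not overlap. On this scale 56.2% of all genes tested did not overlap.

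The sum of the 3 ID genes was 174 ± 24.9 FPKM in vehicle and 135 ± 6.07 after ATRA (SD, n = 3). The share of Id2 in it did not overlap between the groups. Id2 took 20.6%, 20.2% and 20.6% of the sum in vehicle replicates 1 to 3 and 40.7%, 41.5% and 40.3% in ATRA replicates 1 to 3. Id3 went from 42.4% ± 5.18 to 24.9% ± 0.42, and Id1 had 37.2% ± 5.16 and 34.3% ± 0.27. The ratio of Id2 to Id3 had a geometric mean of 0.49 in vehicle and 1.64 after ATRA, a difference of 1.76 on the log2 scale. It was higher in 3 of 3 ATRA libraries than in any vehicle library (two-sided exact permutation p = 0.1, the smallest possible). As Id2 was higher and Id3 lower without overlap, this separation too follows from the single genes and is no separate result.

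Ordered by mean FPKM, vehicle cells had Id3 (73.2), Id1 (65.3), Id2 (35.7), Bmp7 (23.4), Smad6 (11.9), Bmp10 (6.76), Bmp2 (5.79), Bmp4 (4.12), Grem1 (1.09) and Bmp5 (0.6). Neighbours whose library values overlapped were Id3 and Id1, Bmp10 and Bmp2, Bmp2 and Bmp4, and Grem1 and Bmp5. After ATRA the order was Id2 (55.3), Bmp7 (53.8), Id1 (46.5), Id3 (33.7), Smad6 (10.1), Bmp10 (4.06), Bmp2 (2.59), Bmp4 (1.25), Bmp5 (0.88) and Grem1 (0.047), with overlap between Id2 and Bmp7 alone. After ATRA, Bmp7 RNA thus overlapped with Id2 and lay above Id1 and Id3, Id3 had gone from rank 1 to rank 4, and Grem1 had become the scarcest. Replicates were tighter after ATRA for 9 of the 10 genes: the coefficient of variation was 8.84% to 66.9% in vehicle and 2.78% to 58.9% after ATRA, with Bmp2 the exception at 8.84% and 9.86%. The share of all genes with tighter ATRA replicates was not determined. For Grem1, Bmp4, Id1 and Smad6, vehicle replicate 3 was the library that lay apart.

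Other genes of the pathway were more often lower than higher. Of 60 listed genes beyond the 10, 59 were in the table and 44 were tested, and among these 7 rose, 21 fell and 16 missed the threshold. Thus 63.6% of the 44 were called, beside 39.3% of all genes, of which 20.3% were higher and 18.9% lower. The median log2 fold change of the 44 was -0.27. Without vehicle replicate 3, 7 rose and 23 fell, beside 26% and 24.1% of all genes. The other 3 ligand genes that passed the filter on low values were lower: Gdf6 (-1.54 ± 0.15, SE, limma adjusted p = 0.00022), Bmp3 (-1.23 ± 0.3, limma adjusted p = 0.014) and Bmp6 (-1.11 ± 0.36, limma adjusted p = 0.039), while 7 ligand genes were too low to test. Bmp6, a relative of Bmp5 and Bmp7, had 657, 421 and 209 normalised counts in vehicle and 202, 169 and 166 after ATRA. Vehicle replicate 3 was again the low one. The Bmp6 call was lost on leaving out vehicle replicate 1, vehicle replicate 2 or each ATRA replicate in turn (limma adjusted p = 0.063, 0.11, 0.083, 0.11 and 0.12), and that of Bmp3 without vehicle replicate 2 (limma adjusted p = 0.053).

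Several other genes for secreted BMP antagonists also fell. Of 11 tested antagonists and extracellular modulators, 6 fell and 2 rose, and the median of the 11 was -0.43. The share called was 72.7%, beside 39.3% of all genes (20.3% higher and 18.9% lower). Fst encodes follistatin, which binds activins and some BMPs, and it went from 1849, 1424 and 934 normalised counts in vehicle to 126, 115 and 160.4 after ATRA (log2 fold change -3.34 ± 0.24, SE, n = 3, limma adjusted p = 5.1e-05). Chordin, from Chrd, holds BMP2 and BMP4 and is cut by tolloid proteases, and Chrd had 54.2, 70.3 and 53.3 in vehicle and 6.86, 11.1 and 10.8 after ATRA (-2.52 ± 0.27, limma adjusted p = 0.00036). Nog, which encodes noggin, had 11.6, 15.6 and 15.2 in vehicle and was at 0 in 2 of the 3 ATRA libraries, with 5.06 in the other (limma adjusted p = 0.013, and 0.05014 without vehicle replicate 2, which did not pass). Like Grem1, Nog passed the filter on low values through the vehicle libraries alone, and its fitted log2 fold change of -3.04 became -3.7 with a pseudocount of 0.5 and -1.59 with one of 5. Vehicle replicate 3 was below the mean of vehicle replicates 1 and 2 for 10 of the 11 tested genes, beside 6376 of all 13110 genes tested. The same held for 8 of 9 fibroblast and 6 of 6 epicardial markers, and a part of cell makeup in these falls was not tested. On the log2 scale Fst was 0.80 and Chrd 0.21 below that mean in vehicle replicate 3, Grem1 was 2.44 below, and Nog was the 1 gene above, by 0.16. Bmper, which encodes a BMP-binding endothelial regulator, was lower as well (-1.95 ± 0.41, limma adjusted p = 0.0071), with vehicle replicate 3 its low library at 30.4 against 84.2 and 85.9. The 2 higher genes, named after their values were seen, were Twsg1 (0.49 ± 0.08) and Fstl3 (0.43 ± 0.08).

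Receptor genes split. Of 11 tested receptors and co-receptors, 4 rose and 3 fell, and the median of the 11 was 0.0021. The share called was 63.6%, beside 39.3% of all genes (20.3% higher and 18.9% lower). Acvrl1 and Eng encode the type I receptor ALK1 and its partner endoglin, which serve BMP9 and BMP10 in endothelium. Acvrl1 had 130, 79 and 52.2 normalised counts in vehicle and 26.5, 26.3 and 31.4 after ATRA (log2 fold change -1.51 ± 0.32, SE, n = 3, limma adjusted p = 0.0074). Eng had 3750.4, 2649 and 1761 in vehicle and 1139, 1159 and 1024 after ATRA (-1.23 ± 0.23, limma adjusted p = 0.0046). Both were lowest among vehicle libraries in replicate 3. Hjv, a BMP co-receptor of striated muscle and liver, rose from 373, 385 and 670 to 1195, 1204 and 1022 (1.31 ± 0.21, limma adjusted p = 0.0022). The other higher genes, named after their values were seen, were Rgma (0.84 ± 0.16), a relative of Hjv, the decoy receptor gene Bambi (0.85 ± 0.08) and the type I receptor gene Bmpr1a (0.3 ± 0.07). The main type II receptor gene Bmpr2 was not called (-0.08 ± 0.06, limma adjusted p = 0.33).

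Of the 9 SMAD genes and SMAD regulators, 4 fell and 0 rose, with a median of -0.28 over the 9. The share called, 44.4%, was near the 39.3% of all genes. Smad1, which encodes a BMP receptor substrate, had 753, 786 and 688 normalised counts in vehicle and 498, 485 and 467 after ATRA (log2 fold change -0.62 ± 0.08, SE, n = 3, limma adjusted p = 0.00064). Ski, a corepressor of SMAD proteins, had 3819, 3405 and 4073 in vehicle and 2575, 2337 and 2549 after ATRA (-0.6 ± 0.08, limma adjusted p = 0.00076). The other 2, named after their values were seen, were Smad5 (-0.28 ± 0.06) and the inhibitory Smad7 (-0.62 ± 0.11), the latter with 2332, 1954 and 2685 in vehicle and 1455, 1585 and 1468 after ATRA.

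In the list of further BMP targets, 3 of 7 tested genes fell and 1 rose, with a median of -0.99 over the 7. The share called was 57.1%, beside 39.3% of all genes (20.3% higher and 18.9% lower). That median is the value of Hey1, which was not called (limma adjusted p = 0.069). Hey1 passed the filter on low values through the vehicle libraries alone, with 21.3, 13 and 12 normalised counts there and 6.86, 5.06 and 9.76 after ATRA. Atoh8, a helix-loop-helix gene induced by BMP signalling in several tissues, had 299, 227 and 286 normalised counts in vehicle and 57.8, 43.5 and 52 after ATRA (log2 fold change -2.38 ± 0.17, SE, n = 3, limma adjusted p = 4.5e-05). Id4, the remaining gene of the ID family, had 570.1, 670.1 and 733 in vehicle and 253, 196 and 228 after ATRA (-1.54 ± 0.13, limma adjusted p = 0.00011). In both genes vehicle replicate 3 was close to the other vehicle libraries. Runx2, a skeletal transcription factor gene, was lower (-1.01 ± 0.29, limma adjusted p = 0.025), a call lost in the same 5 fits (limma adjusted p = 0.06 to 0.092). The higher gene was the cardiac Tbx20 (0.49 ± 0.12), whose call was lost without vehicle replicate 2 or ATRA replicate 2 or 3 (limma adjusted p = 0.061, 0.059 and 0.069). Among the E protein genes, whose products ID proteins bind, Tcf12 (-0.2 ± 0.06) and Tcf3 (-0.22 ± 0.07) were slightly lower and Tcf4 was not called (-0.1 ± 0.09). These calls were lost without vehicle replicate 1 or 2 or ATRA replicate 1 or 2 (limma adjusted p = 0.067 to 0.15), and that of Tcf3 also without ATRA replicate 3.

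**Figure D4:**
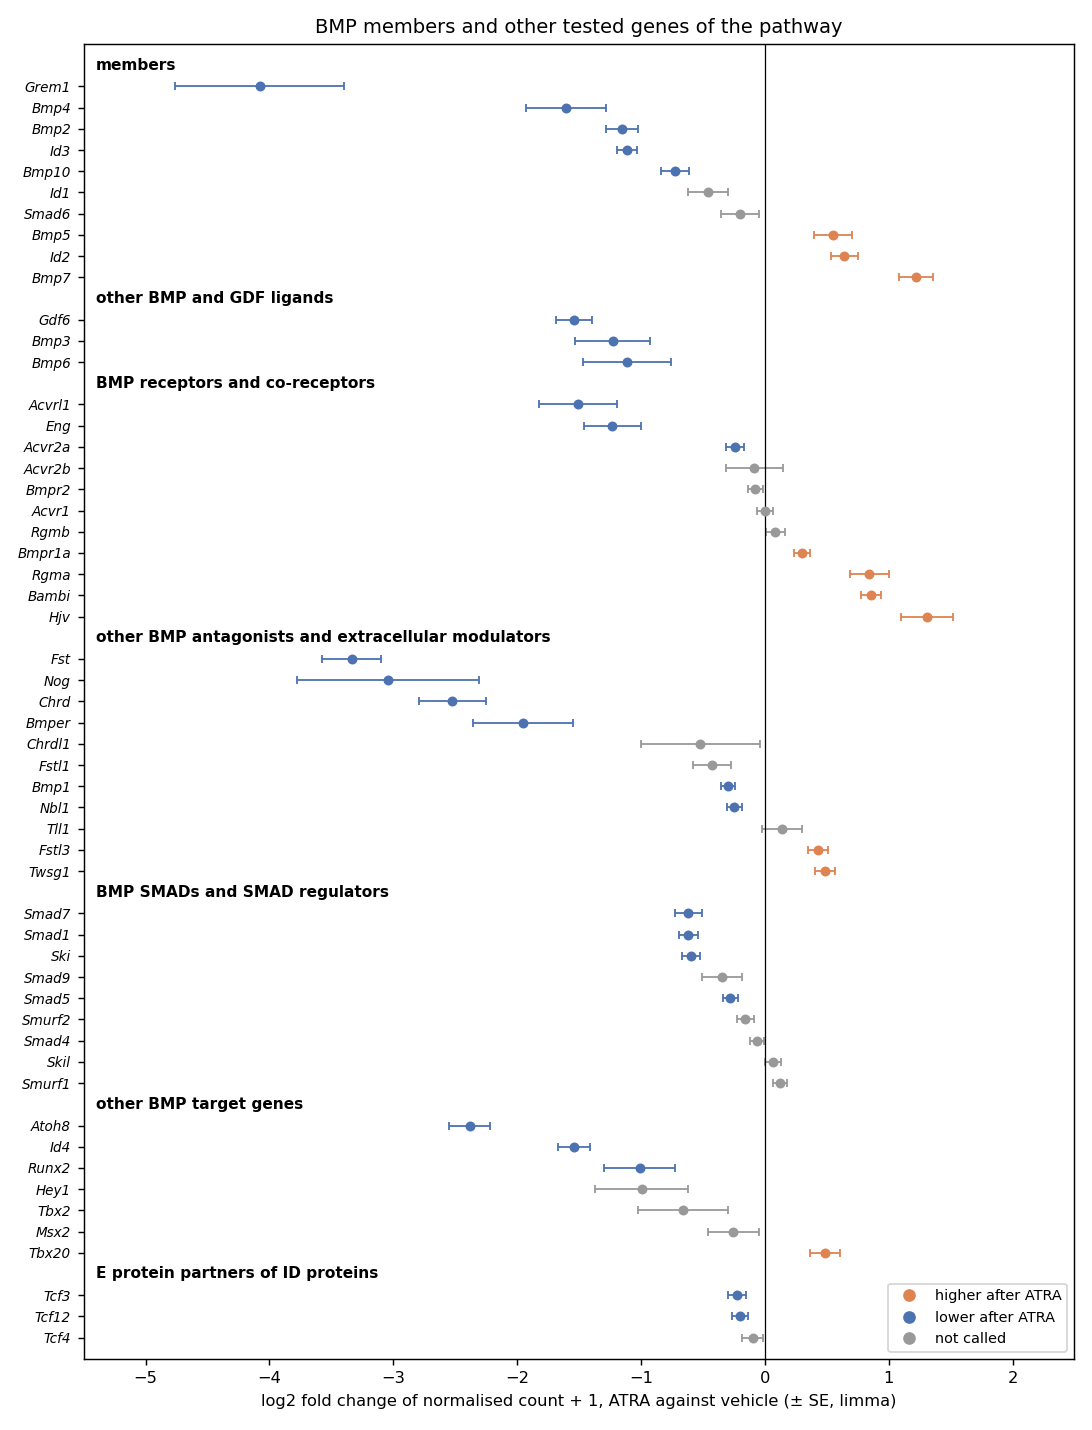
Log2 fold changes of normalised count + 1, ATRA against vehicle, for the 10 genes and 44 other tested genes of the pathway, with the SE from limma (n = 3 per group). Colours give the call at an adjusted p under 0.05. Grem1 (-4.08), Fst (-3.34), Nog (-3.04), Chrd (-2.52), Atoh8 (-2.38) and Bmper (-1.95) lie far to the left, and Bmp7 (1.22) and Hjv (1.31) farthest to the right.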

How the data were processed

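Gene-level values of 6 RNA-seq libraries were used. Tools listed in the submitters' processing notes are DESeq2 1.32.0, HTSeq 0.11.2, STAR 2.7.3a and Trim Galore 0.6.4, with the rat build mRatBN7.2. In the sources used here neither strand setting nor annotation release is given, so reads of overlapping or antisense genes cannot be separated. Per the file headers, the deposited table holds a normalised count signal (reads divided by a size factor per library by the authors), FPKM, and the authors' log2 fold changes, test scores, p-values and adjusted p-values. Within a gene FPKM was proportional to the normalised count, and the deposited averages were not used.

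Reads were recovered as whole multiples of each library's smallest value (100% of values whole within a relative tolerance of 1e-08). For ATRA replicate 2 the step of 1.01 was close to 1, and its values were whole multiples of that step with a largest deviation of 1.3e-09. Genes were tested in limma 3.58.1, with variance trended on mean level, after taking log2(normalised count + 1), a scale that understates changes of low genes, for genes with at least 10 normalised counts in at least 3 libraries. The limma test was also run on simulated data with few changed genes and no outlying library, which differ in both from these data. edgeR 4.0.16 and DESeq2 1.42.0 on the recovered reads, other scalings, filters of none or 50, pseudocounts of 0.5 and 5, array weights, a replicate block and leaving out each library were the alternatives.

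The members and gene lists were chosen with earlier results of these data known. Named beyond the 10 were called genes of each list with an absolute log2 fold change of at least 1, or else the 2 with the smallest p, and the 3 genes most like Grem1. Promoter sequences are from RefSeq, GRCr8.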

Additional observations from a re-analysis of the deposited data

How the results depend on the processing

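None of the 10 genes changed direction in any of 16 alternatives, and 7 of them (Bmp2, Bmp4, Bmp7, Bmp10, Grem1, Id2 and Id3) kept their call wherever they were tested. Grem1 could not be tested under the stricter filter. Between 2 and 3 members were higher and between 4 and 6 lower. Of the 44 other pathway genes, 6 to 8 were higher and 15 to 26 lower. Leaving out 1 library gave 15 to 23 lower, with the same genes tested. The count of all genes called was 3360 to 6565 when 1 library was left out. Removing any ATRA library brought it to 3402, 3416 or 3360. Scaling by library size alone moved the median of all genes from 0.0044 to -0.1 on the log2 scale. The small changes of Acvr1, Rgmb and Skil, none of them called, changed sign there, and those of Acvr1 and Acvr2b, also not called, under other alternatives. Replicate numbers did not pair the libraries: deviations from the group mean correlated at 0.00041, -0.1 and -0.013 for replicates 1, 2 and 3. With the replicate number as a block, 2 members were higher and 6 lower, since Bmp5 lost its call (0.55, adjusted p = 0.059) and Id1 gained one (-0.46, adjusted p = 0.046), and 4437 genes were called in all. Array weights stopped before full convergence. Depth limited Grem1 after ATRA, with 3 to 9 reads per library, and Nog.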
